A study of Mus musculus with 6 samples.

Results

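Alternative internal exons are exons that lie between the first and the last exon of at least 1 annotated transcript of a gene while another transcript of the same gene passes over the same stretch. Of the 221162 unique exons in the deposited exon-count tables, 4074 exons of 2283 gene symbols met the rule used here. Each was internal in at least 1 RefSeq transcript of its symbol and overlapped no exon of at least 1 other transcript of that symbol whose span contained it, and exons on chromosomes X and Y were dropped. The rule used coordinates only and no read count. Of these, 2446 exons in 1445 symbols lay in genes with 200 or more reads in each library, and the other 1628, in less expressed genes, are not described further. Of the 2446, 1888 exons in 1217 symbols had 30 or more counts summed over the libraries and were tested, and 558 had fewer, 77 of them at 0 in every library.

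RNA sequencing was performed on LSK cells, the lineage-negative bone marrow cells that carry Sca-1 and c-Kit and hold the haematopoietic stem and early progenitor cells. Asxl2-/- cells came from Mx1-cre Asxl2fl/fl mice and wild type cells from Mx1-cre control mice, all C57BL/6, so that the Cre transgene and pIpC injection were common to both groups. The Mx1 promoter responds to interferon and pIpC is a synthetic double-stranded RNA that induces it, and deletion by this system acts in many tissues and not in blood cells alone. Counts per exon were given for Asxl2-/- replicate 2 and wild type replicates 1 and 3, and all values per exon therefore compare 1 knockout library with 2 wild type libraries. The other 3 libraries had counts per transcript only and entered the gene-level comparison at the end. Over unique exons, counts summed to 56764607 in Asxl2-/- 2, 54847749 in wild type 1 and 54941194 in wild type 3. The 8 LSK markers examined, among them Kit, Ly6a and Flt3, were above 0 in every library, as were all B-cell and erythroid markers, so that detection alone does not set these cells apart. Summed as CPM (counts scaled to a common library size), LSK markers stood at 1390 in Asxl2-/- 2, 1450 in wild type 1 and 1210 in wild type 3, and erythroid markers at 1000, 2220 and 3040. Megakaryocyte markers stood at 908, 403 and 259, and their part in the exon values was not tested. Over all 6 libraries 5 of these 11 markers were called higher (edgeR), against 288 of the 14145 genes tested. The groups also differed in genes of the sex chromosomes. Uty, Kdm5d, Eif2s3y and Ddx3y on chromosome Y had 0 to 2 counts in each of the 3 Asxl2-/- libraries and 1026 to 4807 in each wild type library. Xist had 49540 to 66689 counts in the Asxl2-/- libraries and 590 to 3194 in wild type, so that genotype and sex cannot be told apart. The labels were borne out at Asxl2 itself, where the 712-base exon, which is no alternative exon, held 0.583% of the gene's reads in Asxl2-/- 2, 10.3% in wild type 1 and 12.0% in wild type 3 (log2 ratio -4.25, SE 0.166, adjusted p = 1.10e-138, edgeR quasi-likelihood test).

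As background, an internal exon is kept or skipped when the spliceosome pairs the splice sites on either side of it, and proteins such as the SR, hnRNP, PTB, MBNL and RBFOX families bind nearby RNA and shift that choice. An exon whose length is a multiple of 3 can be skipped without moving the reading frame, whereas skipping another exon changes the frame and often yields a transcript that is degraded. Some exons are mutually exclusive, meaning that a transcript holds either of a neighbouring pair and not both, and in blood cells alternative exons are well known in the surface proteins CD45 and CD44.

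The sequences shown are those of the exons on which the results below turn most. They were read from GENCODE M1 protein-coding transcripts of the NCBIM37 build and matched to the deposited mm10 exons by gene symbol, exon length and the lengths of both flanking introns, without converting coordinates. Exon bases are in capitals and the ends of the exons on either side, as joined in the messenger RNA, are in lower case, all 5′ to 3′ on the strand of the gene. The first 4 are the variable exons of Ptprc, which encodes CD45, on the minus strand at chr1:138122456-138122584 (exon A), chr1:138120020-138120166 (exon B), chr1:138117754-138117894 (exon C) and chr1:138116954-138117025. They are the exons that encode the variable extracellular part of the protein.
Ptprc exon A: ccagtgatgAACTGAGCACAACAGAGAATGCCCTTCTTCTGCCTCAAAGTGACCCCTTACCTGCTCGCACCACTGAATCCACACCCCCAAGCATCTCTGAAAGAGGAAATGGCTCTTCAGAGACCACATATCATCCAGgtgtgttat
Ptprc exon B: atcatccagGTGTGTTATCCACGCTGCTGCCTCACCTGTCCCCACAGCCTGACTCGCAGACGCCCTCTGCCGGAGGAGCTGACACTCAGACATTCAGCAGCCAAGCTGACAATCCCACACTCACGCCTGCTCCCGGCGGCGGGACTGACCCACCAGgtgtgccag
Ptprc exon C: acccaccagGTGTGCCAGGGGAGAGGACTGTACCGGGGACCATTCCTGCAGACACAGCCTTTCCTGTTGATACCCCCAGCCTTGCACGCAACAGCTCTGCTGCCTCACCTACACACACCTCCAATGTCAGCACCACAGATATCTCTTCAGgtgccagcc
Ptprc 72-base exon: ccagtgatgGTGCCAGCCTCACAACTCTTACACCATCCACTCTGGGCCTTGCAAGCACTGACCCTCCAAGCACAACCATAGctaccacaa

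The next set holds exons whose use was called different between Asxl2-/- 2 and wild type, all on the plus strand, at chr15:79899020-79899118 in Apobec3, chr12:8733273-8733509 in Pum2, chr16:20630352-20630438 in Ece2 and chr5:108670119-108670259 in Idua.
Apobec3 99-base exon: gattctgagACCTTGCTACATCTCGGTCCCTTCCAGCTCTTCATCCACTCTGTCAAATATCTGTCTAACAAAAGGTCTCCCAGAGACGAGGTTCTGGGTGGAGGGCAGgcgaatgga
Pum2 237-base exon: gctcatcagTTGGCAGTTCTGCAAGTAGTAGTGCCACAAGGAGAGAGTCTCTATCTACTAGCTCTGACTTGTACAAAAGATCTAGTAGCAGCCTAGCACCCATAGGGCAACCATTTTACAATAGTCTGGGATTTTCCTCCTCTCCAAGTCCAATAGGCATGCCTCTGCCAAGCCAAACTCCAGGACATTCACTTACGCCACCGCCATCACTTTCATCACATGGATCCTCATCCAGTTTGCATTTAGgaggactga
Ece2 87-base exon: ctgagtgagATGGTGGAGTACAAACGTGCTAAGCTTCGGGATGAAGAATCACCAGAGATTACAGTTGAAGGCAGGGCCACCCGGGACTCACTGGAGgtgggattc
Idua 141-base exon: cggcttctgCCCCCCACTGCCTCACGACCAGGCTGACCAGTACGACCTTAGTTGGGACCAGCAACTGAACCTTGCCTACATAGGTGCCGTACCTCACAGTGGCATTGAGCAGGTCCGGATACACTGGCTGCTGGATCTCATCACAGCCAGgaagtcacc

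A further kind is the mutually exclusive pair. The exons of Pkm at chr9:59675029-59675195 and chr9:59675568-59675734 (plus strand) and those of U2af1 at chr17:31652502-31652568 and chr17:31651646-31651712 (minus strand) are shown in order of transcription without flanks, and here the capitals mark the bases at which the exons of a pair differ. The Pkm exons differed at 64 of 167 bases (61.7% identity) and the U2af1 exons at 23 of 67 (65.7% identity). The H2afy exons, which are not of equal length, are shown with their flanks as above, at chr13:56089758-56089857 and chr13:56088252-56088342 on the minus strand.
Pkm upstream exon: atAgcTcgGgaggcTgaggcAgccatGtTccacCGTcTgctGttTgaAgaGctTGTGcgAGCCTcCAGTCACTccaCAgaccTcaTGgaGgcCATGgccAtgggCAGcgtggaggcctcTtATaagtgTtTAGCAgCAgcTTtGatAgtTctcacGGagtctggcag
Pkm downstream exon: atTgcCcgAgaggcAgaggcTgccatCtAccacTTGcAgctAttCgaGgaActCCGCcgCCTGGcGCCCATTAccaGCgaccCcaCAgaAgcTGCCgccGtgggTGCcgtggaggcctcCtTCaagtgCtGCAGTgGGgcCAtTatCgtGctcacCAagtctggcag
U2af1 upstream exon: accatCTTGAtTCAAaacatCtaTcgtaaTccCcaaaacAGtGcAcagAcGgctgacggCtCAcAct
U2af1 downstream exon: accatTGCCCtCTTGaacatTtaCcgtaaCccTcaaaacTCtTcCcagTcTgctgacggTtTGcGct
H2afy 100-base exon: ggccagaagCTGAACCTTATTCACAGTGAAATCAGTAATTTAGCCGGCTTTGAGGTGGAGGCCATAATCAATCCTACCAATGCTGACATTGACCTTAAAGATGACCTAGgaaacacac
H2afy 91-base exon: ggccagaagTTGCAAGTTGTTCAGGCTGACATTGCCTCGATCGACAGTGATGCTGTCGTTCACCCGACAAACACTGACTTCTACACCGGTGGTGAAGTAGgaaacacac

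Alternative exons were shorter than constitutive exons and more often a multiple of 3. Over the 2446 exons in expressed genes the median length was 100 bases, against 121 bases over 90814 constitutive internal exons, which no transcript of the symbol passes over, in the same expression range. Lengths divisible by 3 were found for 1340 (54.8%) of the alternative and 34913 (38.4%) of the constitutive exons. Exons of 30 bases or fewer made up 149 (6.09%) of the alternative and 581 (0.640%) of the constitutive exons. Among those 149 short exons 83.2% were a multiple of 3, against 52.9% of the 2297 longer alternative exons. The annotation class divided the exons as well. Where coding transcripts both held and skipped the exon, 1258 of 2176 (57.8%) were a multiple of 3, whereas 54 of 147 (36.7%) were where only non-coding transcripts held it. These shares were computed from coordinates, depend on which transcripts RefSeq lists, and were not tested because exons are not replicates.

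How often each exon was used was expressed as an inclusion index, a ratio without unit. It is the exon's count divided by its length plus 100 bases, about the length of a read, since a read that touches the exon by either end is counted, over the median of the same quantity in the constitutive internal exons of the gene. An index near 1 means that an exon was covered like its constitutive neighbours, and an index near 0 that it was passed over. The index could be formed for 1851 alternative exons of 1092 symbols. In wild type, taken as the mean of both libraries, 663 exons (35.8%) had an index under 0.2, 650 (35.1%) lay from 0.2 to 0.8 and 538 (29.1%) were over 0.8. The median index was 0.483 in Asxl2-/- 2, 0.488 in wild type 1 and 0.469 in wild type 3. Constitutive internal exons, 79012 in number, had a median of 1.002, with 88.8% over 0.8 and 0.338% under 0.2, which gives the scatter of the index in exons that no annotated transcript skips. Exons with lengths divisible by 3 had a lower median index (0.402, n = 1066) than the others (0.613, n = 785), and 41.0% against 28.8% of them fell under 0.2.

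**Figure D1:**
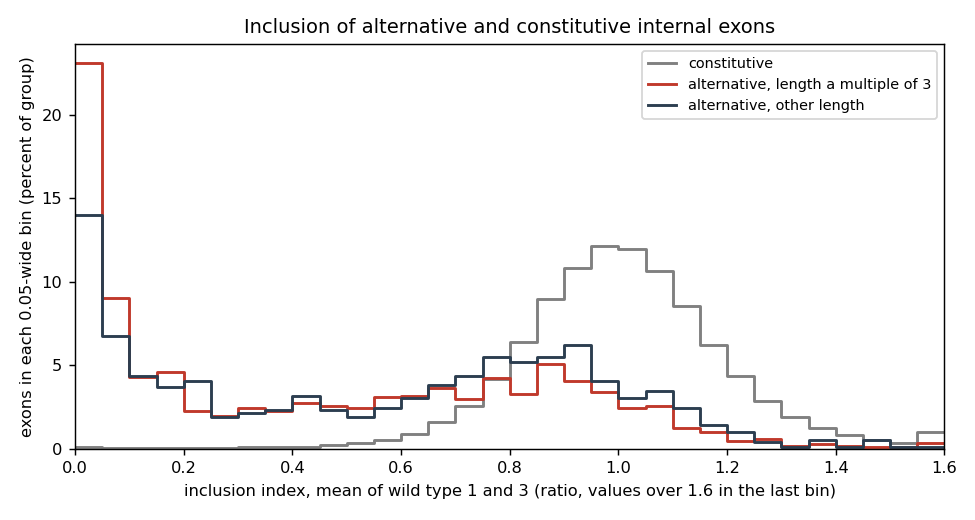
Share of exons (percent of each group, y axis) by inclusion index in wild type (ratio, mean of wild type 1 and 3, x axis) for constitutive internal exons and for alternative exons with and without a length divisible by 3. Constitutive exons form a single peak near 1, while both groups of alternative exons have a peak near 0 and a broad shoulder up to 1, and the peak near 0 is taller for lengths divisible by 3, of which 41.0% lie under 0.2.

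The index followed the annotation. Exons held by fewer than 1 in 3 of the transcripts that hold or skip them had a median index of 0.0525 (n = 227), those held by more than 2 in 3 had 0.885 (n = 224), and those in between had 0.478 (n = 1400). Exons held only by non-coding transcripts had a median of 0.120 (n = 80), and those skipped only by non-coding transcripts 0.890 (n = 89). By length the median was 0.0493 for 1 to 30 bases (n = 135), 0.210 for 31 to 60 bases (n = 284), 0.584 for 61 to 120 bases (n = 785) and 0.639 for 121 to 240 bases (n = 522). Short exons were therefore mostly passed over in LSK cells, with 74.1% of those up to 30 bases under an index of 0.2. The counting of short exons depends most on the 100 added bases. An exception was the 12-base exon of Dnm2, which encodes dynamin 2, a GTPase of membrane fission, with an index of 0.874 in Asxl2-/- 2, 0.931 in wild type 1 and 0.814 in wild type 3, an exon named after its value was seen.

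Among the surface proteins, the exons of Ptprc separated into a group that was mostly skipped and an exon that was mostly kept. CD45 is the receptor tyrosine phosphatase of all nucleated blood cells, and exons A, B and C add variable extracellular segments. Exon A had 33 counts in Asxl2-/- 2, 42 in wild type 1 and 13 in wild type 3, and an index of 0.0652, 0.0930 and 0.0350 in the same order. Exon B had 86, 133 and 88 counts and an index of 0.157, 0.273 and 0.220. Exon C had 79, 81 and 52 counts and an index of 0.148, 0.170 and 0.133. The next exon downstream, of 72 bases, had 330, 301 and 250 counts and an index of 0.868, 0.887 and 0.897. Thus the 3 variable exons stayed at or below 0.273 in every library while the 72-base exon stood above 0.86. Coverage of Ptprc fell towards its 5′ end, and the constitutive exon just upstream of exon A had an index of 0.554, 0.626 and 0.517, above exons A, B and C in each library. Set against the nearest constitutive exon on each side, exon B had a higher index, 0.2296, 0.4071 and 0.3385. The 72-base exon then had 1.265, 1.323 and 1.381. The share of exon B lay below both wild type shares by more than these were apart (0.557% of gene reads in Asxl2-/- 2 against 0.967% and 0.787%), which did not pass the test (log2 ratio -0.67, SE 0.179, adjusted p = 0.0729, edgeR quasi-likelihood test). Beside it, the 12 B-cell markers examined, cells in which exon B is commonly kept, summed to 215 to 255 CPM in the Asxl2-/- libraries and 50.1 to 75.4 in wild type. None of the 12 was at 0 in a library. Over all 6 libraries 9 of them were called higher (edgeR), against 288 of the 14145 genes tested. The part of B cells in the Ptprc values was not tested. In such bulk samples fewer cells of a type and less RNA per cell cannot be told apart.

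**Figure D2:**
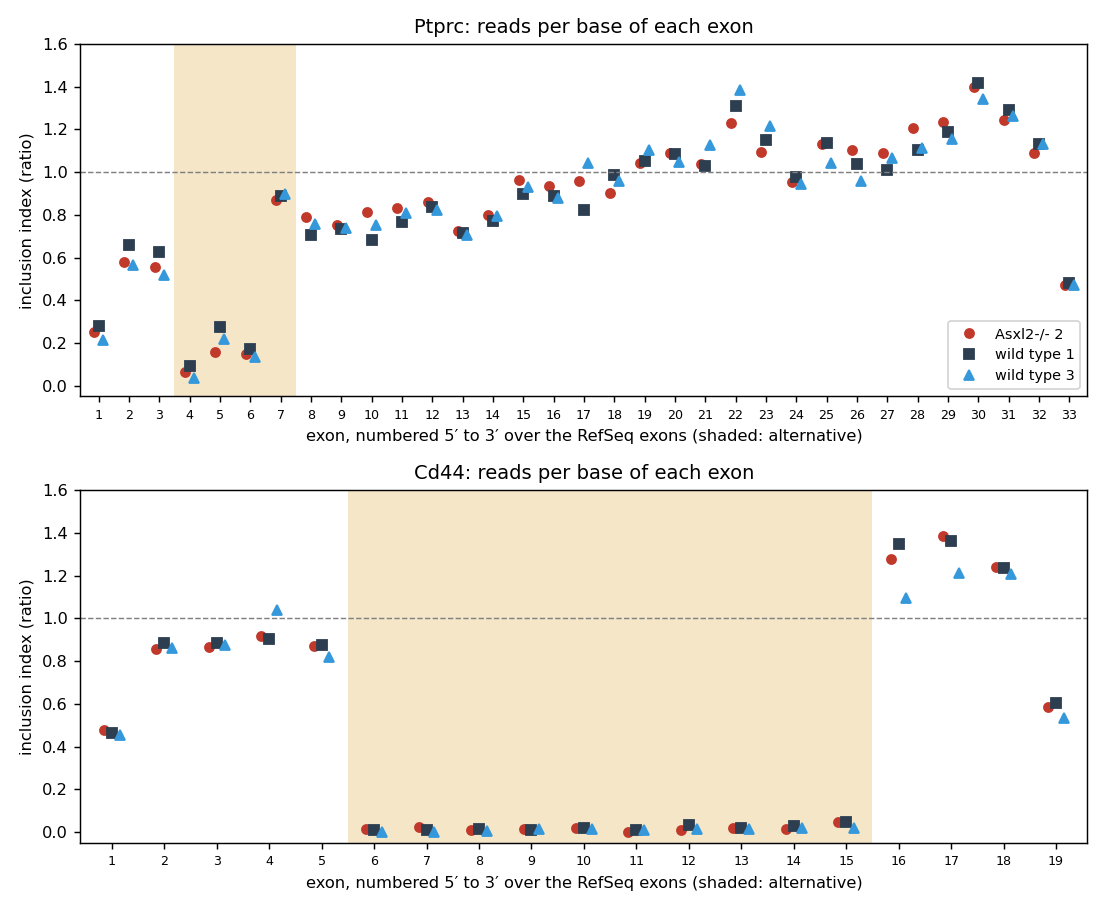
Inclusion index (ratio, y axis) of every RefSeq exon of Ptprc (upper panel) and Cd44 (lower panel), numbered 5′ to 3′ (x axis), with a point per library and alternative exons shaded. The first 3 shaded Ptprc exons lie at or below 0.273 and the fourth above 0.86, and all 10 shaded Cd44 exons lie at or below 0.0480, while the exon just upstream of the shaded ones lies at 0.517 to 0.626 in Ptprc and the exons on either side of them in Cd44 lie above 0.8.

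CD44, the hyaluronan receptor, carries 10 annotated alternative exons, the variable exons of its extracellular stem, and they were nearly absent. The most read of them, of 207 bases, had 30 counts in Asxl2-/- 2, 30 in wild type 1 and 16 in wild type 3, which gave an index of 0.0480, 0.0475 and 0.0210. The other 9 had 1 to 15 counts in each library and an index of at most 0.0322, and did not reach the 30 counts needed for a test. Pecam1 and Itga6 behaved differently. The 57-base exon of Pecam1, in the cytoplasmic tail of the adhesion receptor CD31, had an index of 0.499, 0.625 and 0.603 in Asxl2-/- 2, wild type 1 and wild type 3. The 130-base exon of Itga6, which encodes a cytoplasmic form of integrin alpha 6, had 0.903, 0.796 and 0.802. Of the 12 surface genes listed, 4 held 7 tested exons. None of the 7 was called different, against 0.689% of all alternative exons tested, and 1 had an unadjusted p under 0.05. Their median log2 ratio was -0.05 and their median absolute log2 ratio 0.202, against -0.01 and 0.119 over all 1888 tested exons.

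Exons of transcription and chromatin regulators had the highest median index of the 5 lists examined, 0.765 over 35 exons. H2afy encodes the histone variant macroH2A1, and its exclusive exons give macroH2A1.2 (100 bases) and macroH2A1.1 (91 bases), of which only the latter binds ADP-ribose. The 100-base exon had 6765, 6201 and 5225 counts and an index of 0.970, 0.983 and 0.996 in Asxl2-/- 2, wild type 1 and wild type 3. The 91-base exon had 524, 393 and 330 counts and an index of 0.0787, 0.0652 and 0.0658. The macroH2A1.2 exon was thus the one kept in each library, at 92.5% to 93.8% of the sum of both. Runx1, a master regulator of haematopoiesis, had its 192-base exon in most transcripts, with 285, 257 and 216 counts and an index of 0.802, 0.776 and 0.754. The 261-base exon of Ikzf1, the lymphoid zinc finger factor Ikaros, had an index of 0.752, 0.733 and 0.761, and the 136-base exon of Tcf12, a class I helix-loop-helix protein, had 0.972, 0.906 and 0.974.

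Tcf3 encodes the E proteins E12 and E47, whose DNA-binding helix-loop-helix segment is encoded by alternative exons. The 227-base exon had an index of 0.614 in Asxl2-/- 2, 0.683 in wild type 1 and 0.677 in wild type 3, and the 236-base exon 0.211, 0.236 and 0.222. A 224-base form of the former is also listed and overlaps it in all but 3 bases, so that both were counted from the same reads and cannot be told apart. The 227-base exon was thus the more used of the 2 segments in all 3 libraries. In Asxl2 the 144-base exon at chr12:3476026-3476169, upstream of the deleted exon, had 158, 129 and 98 counts and 3.29%, 2.91% and 2.39% of the gene's reads, a difference that did not pass the test (log2 ratio 0.31, SE 0.151, adjusted p = 0.840, edgeR). Of the 24 transcription and chromatin genes, 14 held 42 tested exons. None was called different, against 0.689% of all alternative exons tested, and 5 had an unadjusted p under 0.05. The 42 exons had a median absolute log2 ratio of 0.128.

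RNA-binding proteins had the smallest median absolute log2 ratio of the 5 lists, 0.0622 over 29 tested exons in 17 of the 31 genes listed. The lists were not matched for depth. The most counted exon here had 7200 counts in Asxl2-/- 2, while the most read alternative exon of Cd44 had 30. None of the 29 tested exons of this list was called, against 0.689% of all alternative exons tested. Many of these exons were held by part of the transcripts. Hnrnpa2b1, an hnRNP that binds pre-mRNA throughout the nucleus, held the most counts, and its 120-base exon had an index of 0.597, 0.633 and 0.644 in Asxl2-/- 2, wild type 1 and wild type 3. Hnrnpab had 0.502, 0.580 and 0.535 at its 141-base exon. Hnrnpd, which encodes the AU-rich element binding protein AUF1, had 0.550, 0.547 and 0.518 at its 147-base exon and 0.507, 0.530 and 0.504 at its 57-base exon, which together define its size forms. The 78-base exon of Ptbp1, the gene of a PTB protein, had 0.452, 0.448 and 0.424. The 93-base exon of Pcbp2, a poly(C)-binding protein, had 0.581, 0.617 and 0.577, while the 72-base exon of Hnrnpk was mostly kept at 0.911, 0.873 and 0.925. The 460-base exon of Srsf7, an exon with stop codons through which SR proteins limit their own level, had 0.265, 0.257 and 0.240.

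Intermediate use in every library was common, since 273 exons of 230 symbols had an index between 0.3 and 0.7 in all 3 libraries. The muscleblind gene Mbnl1 shows how exons of a single gene can differ. Its 95-base exon was covered like constitutive exons (index 1.05, 1.02 and 1.00), its 36-base exon mostly (0.792, 0.779 and 0.793) and its 54-base exon seldom (0.143, 0.191 and 0.186). The order of these exons was the same in each library. Mbnl1 was named after its values were seen.

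The cytoskeletal and membrane traffic genes included 1 called exon of 43 tested, that of Dst described below, against 0.689% of all alternative exons tested. The other 42 did not pass the test, and the median absolute log2 ratio of the 43 was 0.201. The tropomyosin gene Tpm3 kept a 76-base exon at an index of 1.21, 1.13 and 1.22 in Asxl2-/- 2, wild type 1 and wild type 3, against 0.0344, 0.0477 and 0.0554 for the exclusive 76-base exon. The 76-base exon of Tpm1 that was used more had 0.764, 0.861 and 0.867. The 5331-base exon of Macf1, a spectraplakin that links actin and microtubules, had 0.358, 0.331 and 0.311 (log2 ratio 0.24, SE 0.0650, adjusted p = 0.0997, edgeR). The 150-base exon of Picalm, a clathrin assembly protein, had 0.490, 0.550 and 0.562. The 111-base exon of Tmpo, a lamina-associated protein, could not be given an index and held 7.37%, 7.08% and 7.69% of the gene's reads. The knockout value lay below both wild type values for Tpm1 and Picalm, above both for Macf1 and between them for Tpm3 and Tmpo.

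Among signalling and metabolic genes, 9 of 23 held 13 tested exons and none was called, against 0.689% of all alternative exons tested. The Pkm exons stand for the M1 and M2 forms of pyruvate kinase, the last enzyme of glycolysis. The M2 exon had 2754, 1831 and 1663 counts and an index of 0.614, 0.634 and 0.621, and the M1 exon had 336, 211 and 166 counts and 0.0750, 0.0730 and 0.0620, so that M2 was the form kept in LSK cells. The 80-base exon of Mapk14 (p38 alpha) that was used more had an index of 0.764, 0.792 and 0.711, and the exclusive one 0.176, 0.211 and 0.184. The 69-base exon of Camk2g, a calcium/calmodulin-dependent kinase, had 0.466, 0.491 and 0.503, and the 45-base exon that gives the long form of Gs alpha held 2.26%, 2.13% and 2.10% of the reads of Gnas. Map3k7 encodes TAK1, a kinase of the TGF-beta and NF-kappaB pathways. Its 81-base exon stood lower in the knockout at 0.585 against 0.854 and 0.752, which did not pass the test (log2 ratio -0.50, SE 0.159, adjusted p = 0.316, edgeR).

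Mutually exclusive exons kept the same partner in nearly every case. Pairs were taken where no transcript held both exons and every transcript that skipped either held the other, which gave 78 pairs in 56 symbols with an index for both exons, a selection made after the values had been seen. The median sum of both indices was 1.00 in Asxl2-/- 2, 1.01 in wild type 1 and 0.992 in wild type 3, so that the partners together covered the gene as a constitutive exon does. The exon used more was the same in all 3 libraries in 71 of the 78 pairs, and it held a median of 82.0%, 83.2% and 82.5% of the sum. In 22 pairs in 21 symbols the exons were of equal length, and in 20 of these the exon used more was the same in all libraries. The exceptions were a 194-base pair in Calu, near equal use, and a 126-base pair in Tpm1 with 5 counts in all. No exon of the equal-length pairs was called different, against 0.689% of all alternative exons tested. In U2af1, a splicing factor that binds the 3′ splice site, the downstream exon had an index of 1.03, 1.00 and 0.956 and the upstream exon 0.227, 0.267 and 0.221. In Mapk9, which encodes the kinase JNK2, the downstream exon had 1.15, 1.02 and 1.14 and the upstream exon 0.178, 0.132 and 0.170. In Fyn, a Src family kinase, the 156-base exon of the haematopoietic form had 0.919, 0.860 and 0.918 and the 165-base exon of the brain form 0.236, 0.173 and 0.185. In Mef2c, a MADS-box factor, the 144-base exon had 1.11, 1.12 and 1.01 and the 138-base exon 0.0688, 0.0839 and 0.0856.

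**Figure D3:**
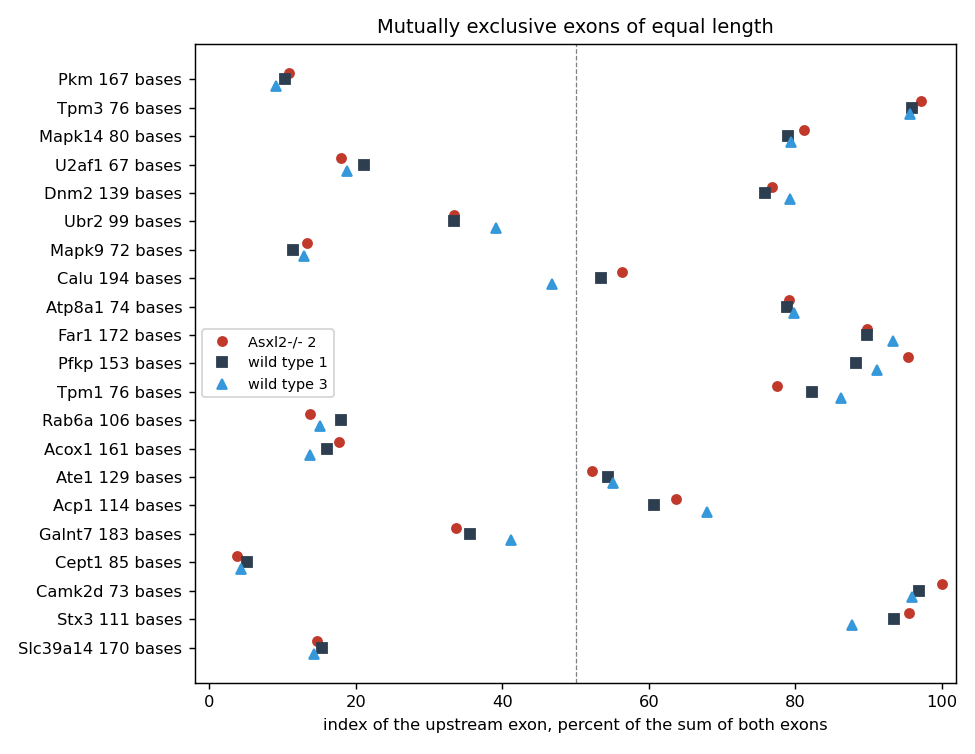
Index of the upstream exon as a percent of the sum of both exons (x axis) for 21 pairs of mutually exclusive exons of equal length (y axis), with a point per library. The 3 libraries lie close together in each pair and on the same side of the dashed line of equal use in all pairs but Calu, and the pairs spread over nearly the whole range, with Pkm at 9.08 to 10.9 percent and Tpm3 at 95.6 to 97.2 percent.

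The comparison of Asxl2-/- 2 with wild type asked whether loss of Asxl2 came with a different use of these exons. It was made on the share of the gene's reads that fell on the exon, so that a change in the level of the gene as a whole does not enter. A share also moves when transcripts with other starts or ends change in proportion. Such shifts were not separated from the choice to keep or skip an exon. The test was the edgeR quasi-likelihood test over all 116141 unique exons with enough counts, with Benjamini-Hochberg adjustment over all of them. Because the knockout is represented by 1 library, its spread was taken to be that of the wild type pair. That spread was estimated from all exons together, so the gap between the wild type libraries at a given exon did not set its p-value. The p-values thus measure counting error and this shared spread, and no spread among knockout libraries. Of the 1888 alternative exons, 13 (0.689%) in 9 symbols passed an adjusted p of 0.05, 7 with a higher and 6 with a lower share in the knockout, and 138 had an unadjusted p under 0.05. Over all exons 264 passed (0.227%), 0.108% higher and 0.12% lower, and among constitutive internal exons 0.0915% did. With DESeq2 only the Apobec3 exon of the 13 passed, against 0.00431% of all exons. In 10 of the 13 the knockout share also lay farther from both wild type shares than these lay apart, which held together with a call for 0.195% of all exons.

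**Figure D4:**
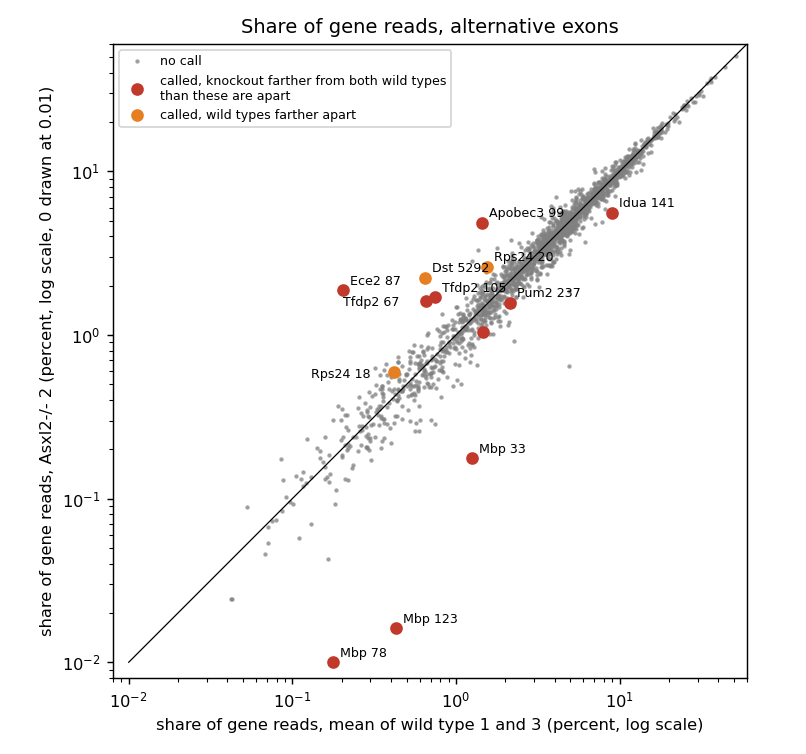
Share of the gene's reads (percent, log axes) held by each tested alternative exon in Asxl2-/- 2 (y axis) against the mean of wild type 1 and 3 (x axis), with called exons in colour, the exons described in the text labelled by symbol and length. Nearly all of the 1888 exons lie along the line of equal shares, and the 13 called exons lie off it, Apobec3 above at 4.84 percent and the 3 Mbp exons farthest below.

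Ratios between the genotypes were mostly of the size of those between the wild type libraries. Over the 1511 exons with 100 or more summed counts the median absolute log2 ratio was 0.108 for Asxl2-/- 2 against wild type 1, 0.112 against wild type 3 and 0.117 between wild type 3 and wild type 1. The knockout share lay outside both wild type shares in 1243 of 1888 exons (65.8%), against 66.5% of all exons, and farther from both than these were apart in 600 (31.8%), against 33.1%. A ratio of 2-fold or more from the wild type mean was seen in 20 exons (1.06%), 7 higher and 13 lower, against 0.292% of all exons. Between single libraries the counts were larger, 34 for Asxl2-/- 2 against wild type 1 and 38 against wild type 3. The wild type libraries were themselves 2-fold or more apart in 38 of these exons, 11 higher and 27 lower in wild type 3.

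The exon with the lowest adjusted p was the 99-base exon of Apobec3, a cytidine deaminase that restricts retroviruses. It had 252 counts in Asxl2-/- 2, 129 in wild type 1 and 181 in wild type 3, out of 5202, 9799 and 11477 reads of the gene. Its share was 4.84% (95% Wilson interval 4.29 to 5.46), 1.32% (1.11 to 1.56) and 1.58% (1.37 to 1.82), and its index 0.580, 0.145 and 0.182. The knockout library stood well above both wild type libraries, which were close together, while the gene as a whole had fewer reads in it (log2 ratio of share 1.73, SE 0.128, adjusted p = 6.63e-37, edgeR). With DESeq2 the adjusted p was 2.90e-06 and with the edgeR test of differential exon usage within genes (diffSpliceDGE) it was 0.139. As background, inbred mouse strains are known to differ in the use of this exon. The labels give C57BL/6 for every sample, and the part of strain in this difference was not tested. Intervals cover counting error only, since reads without molecular identifiers are not independent molecules.

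Tfdp2, which encodes DP-2, a partner of the E2F cell cycle factors, held a pair of called exons. Its 105-base exon at chr9:96223094-96223198 had 92 counts in Asxl2-/- 2, 39 in wild type 1 and 28 in wild type 3, or 1.71%, 0.811% and 0.682% of the gene's reads (log2 ratio 1.18, SE 0.233, adjusted p = 4.08e-04, edgeR). Its 67-base exon at chr9:96232682-96232748 had 87, 33 and 26 counts, or 1.62%, 0.686% and 0.634% (log2 ratio 1.28, SE 0.243, adjusted p = 1.61e-04, edgeR). Both were higher in the knockout and similar in the wild type libraries, although no transcript holds both, and the sum of their indices was 0.979, 0.449 and 0.365. Of the 6 transcripts listed, 2 held the 105-base exon and 1 held the 67-base exon. The rest neither held nor skipped either exon, and their part in these shares was not tested. A 39-base exon had 16, 5 and 5 counts, too few for the test. The other Tfdp2 exons tested, of 104, 77, 122 and 48 bases, the first of which contains the second, had log2 ratios from -0.17 to -0.04 and were not called.

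Ece2, an endothelin-converting protease, held an 87-base exon with 35 counts in Asxl2-/- 2, 1 in wild type 1 and 3 in wild type 3, or 1.88% (1.35 to 2.60), 0.101% (0.0178 to 0.570) and 0.305% (0.104 to 0.892) of the gene's reads (log2 ratio 3.15, SE 0.593, adjusted p = 1.33e-04, edgeR). Both wild type intervals lay below that of the knockout share. Dst, a spectraplakin like Macf1, had 65, 22 and 6 counts in its 5292-base exon, or 2.24%, 0.971% and 0.320% (log2 ratio 1.72, SE 0.314, adjusted p = 6.20e-05, edgeR). Here the wild type libraries were farther apart than the knockout was from wild type 1. The same held for Rps24, a ribosomal protein gene with many processed copies in the genome, where reads may be shared with copies. Its 20-base exon had 1518, 1172 and 464 counts (2.61%, 2.17% and 0.922%, log2 ratio 0.74, SE 0.0559, adjusted p = 2.83e-35, edgeR). Its 18-base exon had 344, 313 and 131 counts (0.591%, 0.580% and 0.260%, log2 ratio 0.47, SE 0.105, adjusted p = 0.00494, edgeR). In both, Asxl2-/- 2 and wild type 1 were close and wild type 3 stood apart.

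**Figure D5:**
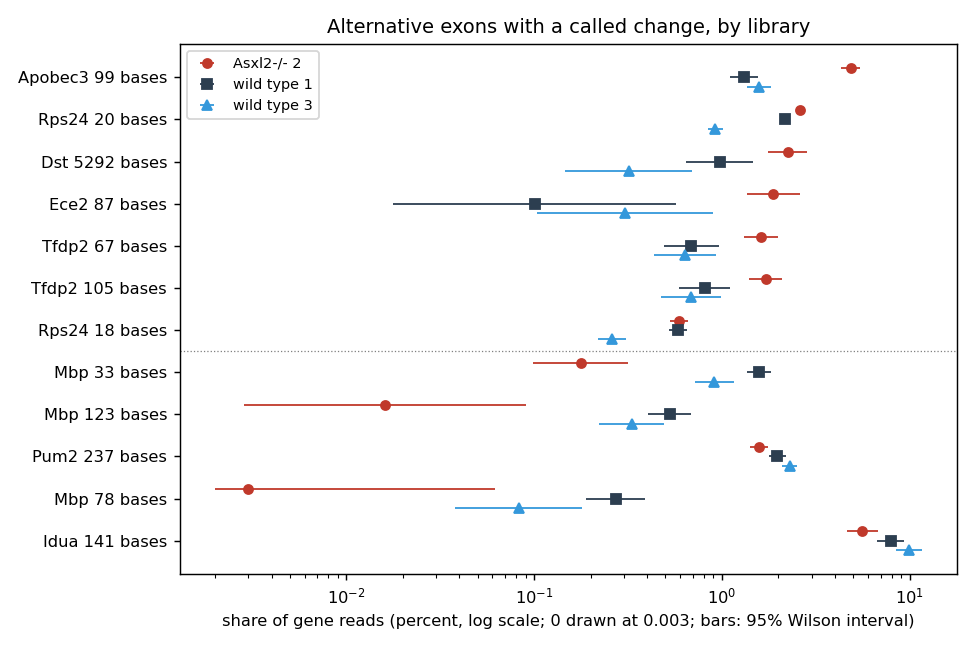
Share of the gene's reads (percent, log axis) for 12 of the 13 called alternative exons (y axis), by library, with 95% Wilson intervals as bars, exons higher in the knockout above the dotted line and lower ones below it. The knockout point is clear of both wild type points in 9 exons, while in the Rps24 exons and Dst the wild type points are the pair farther apart, and the Mbp 78-base exon, with 0 counts in Asxl2-/- 2, is drawn at 0.003 percent.

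Of the 6 exons with a lower share, 3 belonged to Mbp, the myelin basic protein gene on chromosome 18, whose classic exons serve oligodendrocytes and Schwann cells. Its 33-base exon had 11 counts in Asxl2-/- 2, 168 in wild type 1 and 66 in wild type 3, or 0.177%, 1.58% and 0.909% (log2 ratio -2.87, SE 0.324, adjusted p = 5.32e-15, edgeR). Its 123-base exon had 1, 56 and 24 counts, or 0.0161%, 0.526% and 0.331% (adjusted p = 1.18e-06, edgeR). Its 78-base exon had 0, 29 and 6 counts (adjusted p = 0.00672, edgeR), and a count of 0 allows a share of up to 0.0482% in the knockout, against 0.273% and 0.0826% in wild type. Beside these exons, 12 markers of neural and glial cells chosen after the data had been seen summed to 15.4 CPM in Asxl2-/- 2, 107 CPM in wild type 1 and 42.2 CPM in wild type 3, the same order as the Mbp exons. Across the other libraries the sums were 136 and 56.1 CPM in Asxl2-/- 1 and 3 and 12.7 CPM in wild type 2, none of the 12 was called different, and 1 was at 0 in wild type 3. Their part in the Mbp result was not tested.

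Lower shares were also called for exons of Pum2 and Idua. Pum2 encodes a Pumilio protein that binds 3′ untranslated regions and represses translation. Its 237-base exon had 323 counts in Asxl2-/- 2, 376 in wild type 1 and 427 in wild type 3, or 1.57%, 1.98% and 2.29%, and an index of 0.340, 0.436 and 0.523 (log2 ratio -0.44, SE 0.0939, adjusted p = 0.00265, edgeR). Idua, the lysosomal alpha-L-iduronidase, had 96, 132 and 138 counts in its 141-base exon, or 5.60%, 7.92% and 9.94%, and an index of 1.02, 1.48 and 1.90, at or above that of the constitutive exons (log2 ratio -0.66, SE 0.166, adjusted p = 0.0378, edgeR). In both exons the knockout lay below both wild type libraries by more than these were apart.

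Just past the threshold lay exons of Ywhaz, Ppap2a and Dgkz. The 197-base exon of Ywhaz, a 14-3-3 protein, held 2.93% of reads in Asxl2-/- 2, 3.72% in wild type 1 and 3.71% in wild type 3 (adjusted p = 0.0504, edgeR). The 155-base exon of Ppap2a, a lipid phosphate phosphatase, had 2, 22 and 26 counts (adjusted p = 0.0532, edgeR), and the 751-base exon of Dgkz, a diacylglycerol kinase, 4.30%, 5.11% and 4.78% (adjusted p = 0.0667, edgeR). Among exons with 100 or more summed counts and a mean share of 1% or more, the widest differences that were not called were in Zfp446, a zinc finger gene, and Dctn6, a dynactin subunit, in the upward direction. The 196-base exon of Zfp446 held 6.94%, 4.20% and 3.98% (log2 ratio 0.76, adjusted p = 0.405, edgeR), and the 183-base exon of Dctn6 2.43%, 1.85% and 1.20% (log2 ratio 0.67, adjusted p = 0.364, edgeR). In the downward direction the 78-base exon of Col4a3bp, a ceramide transfer protein, held 0.656%, 1.22% and 1.49% (log2 ratio -1.03, adjusted p = 0.166, edgeR). The 168-base exon of Polr3gl, a subunit of RNA polymerase III, held 4.88%, 7.67% and 7.86% (log2 ratio -0.67, adjusted p = 0.125, edgeR). The 76-base exon of Clcn3, a chloride transporter, and the 46-base exon of Maf1, a repressor of RNA polymerase III, had log2 ratios of -0.66 and -0.60 and adjusted p of 0.812 and 0.673 (edgeR).

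The levels of the genes that act on exon choice were compared over all 6 libraries. Of 75 listed splicing regulators 70 could be tested, and 2 were called different in level, 1 higher and 1 lower, against 2.34% of the 14145 genes tested (edgeR, with the kind of table as a covariate). Their median log2 fold change was -0.11, against 0.00 over all genes, and 11 had an unadjusted p under 0.05. Cwc22, a spliceosome protein that also guides the exon junction complex, stood at 56.9, 79.1 and 67.6 CPM in Asxl2-/- 1, 2 and 3 and at 320, 238 and 306 CPM in wild type 1, 2 and 3, with no overlap between the groups (log2 fold change -1.96, SE 0.0995, adjusted p = 0.00180, edgeR). Rbfox2, which binds near alternative exons, stood at 10.3, 8.62 and 8.07 CPM in Asxl2-/- and at 2.74, 1.49 and 1.18 CPM in wild type (log2 fold change 2.36, SE 0.375, adjusted p = 0.0401, edgeR), also without overlap. With a library left out in turn, the Rbfox2 call was lost in 5 of 6 fits (adjusted p up to 0.131, edgeR). The other 68 regulators did not pass the test.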

How the data were processed

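Poly(A)-selected, unstranded libraries of LSK cells were sequenced, per the methods of the study. The deposited values were raw counts, which the authors gave as whole numbers per exon of each RefSeq transcript for 3 libraries and per transcript for the other 3. The submitters' processing notes name STAR, featureCounts and DESeq2, without versions, and the mm10 build. Replicates were not pooled. An exon listed under several transcripts was taken once, and 100 transcripts placed more than once were left out. A read that spans a junction is counted at each exon it touches. Without strand, reads of overlapping genes cannot be told apart, and 26 of the tested alternative exons overlapped an exon of another symbol and 271 another exon of their own.

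Exon counts were tested with edgeR 4.0.16 in R 4.3.3 (glmQLFit, glmQLFTest, two-sided, Benjamini-Hochberg) with the log of the gene's reads as offset. Exons entered with 30 or more summed counts in genes with 2 or more unique exons and 200 or more reads in each library. With 1 residual degree of freedom and infinite prior degrees of freedom, the spread came from the fit over all exons and not from the exon itself. The common dispersion was 0.000273, and the spread used in the test could vary with the abundance of the exon. On simulated data for this comparison, with 116141 exons and 200 changed, 71% of 2-fold and 98% of 4-fold changes were recovered with 14 wrong calls. The simulation used a larger dispersion, equal for every exon and library, and changed only exons with higher counts. Its wrong calls therefore do not estimate those in the data. Gene counts of all 6 libraries were tested with TMM scaling, filterByExpr and the kind of table as covariate, taking the transcript with the longest summed exon length for each symbol. On simulated data for that comparison, with 14145 genes and 200 changed, 42% of 2-fold and all 4-fold changes were recovered. DESeq2 1.42.0 and diffSpliceDGE were alternatives. Indices needed 3 or more constitutive exons with a median count of 20 or more. The 100 bases added to exon length stand for the read length, and a fit over 2915 genes gave a median of 110 (76.0 to 162 between quartiles).

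Exons were named by a rule. It took Asxl2, Ptprc, Cd44, Runx1 and Tcf3, up to 5 genes with the most counts from each of 5 lists, up to 10 called exons per direction, up to 5 per direction with the widest ratios, up to 5 of intermediate index with the most gene reads, and called splicing regulators. Exons from outside it, such as the partners in exclusive pairs, were named after their values were seen. Of the 13 called exons, 1 with a lower share is not reported here. The members, lists and rule were chosen with earlier results of these data known.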

Additional observations from a re-analysis of the deposited data

How the results depend on the processing

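The 13 alternative exons called different all remained called with the gene total taken from the longest transcript and with no filter on exon counts. The same held with 500 or more gene reads, and without exons that overlap another symbol or another exon of the symbol. These filters reused the same counts and gene totals, so they could change little beyond the spread and the adjustment. A robust estimate of spread, which was added after seeing the data, returned the main adjusted p-values and was no separate check. Leaving the alternative exons out of the gene total gave 16, and asking for 10 or more counts in every library gave 9. Asking that the knockout share lie farther from both wild type shares than these lie apart, also added after seeing the data, left 10. The tools differed most, since DESeq2 called 1 of the 1888 exons, with 10 at an unadjusted p under 0.05, and diffSpliceDGE called 0, with 21 at an unadjusted p under 0.05, against 138 in edgeR. The cause was not tested. Over 150 refits of single exons and genes, 120 kept direction and call, 30 lost the call and 0 turned direction. Single exons lost the call only under the other tools, all 13 with diffSpliceDGE and all but that of Apobec3 with DESeq2. The count of exons 2-fold or more apart, 20, was 38 without wild type 1 and 34 without wild type 3, and 5 with 100 or more summed counts. An index under 0.2 was found for 346 exons, in place of 663, when set against the nearest constitutive exon on each side, where fewer exons could be given an index (1060 of 1851). Without a wild type library the exon fit has no residual degrees of freedom, so those values carry no test. No paired analysis was possible for exon shares because Asxl2-/- 2 has no wild type library of the same number among the exon tables.

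For splicing regulators, 2 of 70 were called, beside 331 of all 14145 genes, and 9 with DESeq2, beside 2329 of all genes. With a library left out, 1 to 5 were called (5 without wild type 1, and 1, Cwc22, without any of the others), beside 9 to 1312 of all genes. Same-numbered libraries of the 2 groups had correlations of deviations of 0.294, -0.00766 and -0.00277. The kind of table differed within every same-numbered pair and was not removed from these deviations, so they cannot decide whether the numbers pair the samples. The replicate block with the kind of table called 19, beside 5179 of all genes, and the replicate block alone called 2, beside 380. Cwc22 kept its call in all 12 alternatives (adjusted p up to 0.0276, edgeR or DESeq2). Depth limits the 558 exons under 30 counts, and 1 knockout library limits every statement on genotype.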
